A study of Homo sapiens with 12 samples.

Results

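A set of 10 iron handling genes was followed across the 6 groups of libraries: HFE, TFRC, FTH1, FTL, SLC40A1, SLC11A1, SLC11A2, NCOA4, HMOX1 and IREB2. They were taken by gene symbol from the deposited count tables, so they make up 10 of the 60648 genes listed there, and all 10 passed the filter on low counts in both tables. HFE was chosen by its own measured level, which rises in all 3 knockdowns, so its values are given as a description with no test. The other 9 were added as genes of iron uptake, storage, release and export and were tested.

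The cells were MOLM13 and OCIAML5, human acute myeloid leukemia lines, all of them infected with lentivirus that carried a short hairpin and then selected with puromycin or sorted for GFP. OCIAML5, unlike MOLM13, grew with added GM-CSF in every group. Which libraries came from selected and which from sorted cells is not labelled. In one experiment both lines carried either a control hairpin (shCTL) or a hairpin against PSPC1 (shPSPC1), an RNA-binding protein of nuclear paraspeckles. In another, OCIAML5 carried its own control hairpin or one against SPI1 (shPU.1), which encodes PU.1, a transcription factor of myeloid cells. Each of the 6 groups had 2 libraries. Whether the 2 came from separate infections or from different hairpins is not stated, so the p-values rest on a spread that may be technical.

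Libraries held 15372383 to 39716519 counts. PSPC1 stood at 98.8 to 135 CPM (counts relative to library size after TMM scaling) in its 4 control libraries and at 18.9 to 27.7 CPM in its 4 knockdown libraries, and SPI1 at 204 and 227 CPM against 46.2 and 47.5 CPM. PSPC1 was also lower with PU.1 knockdown, at 59.8 and 58.2 CPM against 106 and 113 CPM in the controls. With PSPC1 knockdown SPI1 went from 254 and 245 to 326 and 352 CPM in MOLM13 and from 201 and 180 to 201 and 217 CPM in OCIAML5. The part of the lower PSPC1 level in the values with PU.1 knockdown was not tested. The leukocyte gene PTPRC and the myeloid gene CD33 were at 74.5 CPM or above in all 12 libraries. They belong to a list of 9 genes for myeloid leukemia lines, of which SPI1, CEBPA, CSF2RB and MYB were at 24.7 CPM or above. The others of that list were lower in some or all libraries. ANPEP did not exceed 0.478 CPM, MPO ran from 0.209 to 37.7 CPM and FLT3 from 17.3 to 323 CPM. Of the 12 listed erythroid genes, EPOR was at 1.67 to 10.2 CPM and all others, HBB, HBA1 and GATA1 among them, did not exceed 0.279 CPM. The 12 listed monocyte and macrophage genes summed to 36.9 to 1070 CPM per library, with MPEG1 up to 871 CPM and LYZ up to 349 CPM, while CD14, CD163 and CD68 did not exceed 0.33 CPM. In all 3 knockdowns 16 of 16 proliferation genes fell. Over all genes tested, 29.6% were called lower for PSPC1 in MOLM13, 28.6% for PSPC1 in OCIAML5 and 30.9% for PU.1. The proliferation genes summed to 4590 and 4650 CPM against 805 and 820 CPM for PSPC1 in MOLM13, 4910 and 4890 against 1520 and 1540 CPM for PSPC1 in OCIAML5, and 5640 and 5690 against 2770 and 2730 CPM for PU.1. The part of the fall in proliferation genes in the values below was not tested.

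Most cells take up iron as transferrin bound to the transferrin receptor, TFRC, whose binding of transferrin HFE can modulate at the cell surface. Iron leaves the endosome through the transporter SLC11A2, is stored in a ferritin shell of heavy (FTH1) and light (FTL) chains, is released when NCOA4 carries ferritin to the lysosome, and leaves the cell through ferroportin, SLC40A1. Macrophages in addition pump iron out of phagosomes with SLC11A1 and free it from heme with HMOX1. Dividing leukemia cells are known for high transferrin receptor.

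IREB2 and its relative ACO1 encode the iron regulatory proteins, which bind a stem-loop called the iron-responsive element. In the 5′ UTR the bound protein blocks translation, and in the 3′ UTR it protects the RNA from decay. The members that hold such letters are shown because they are the uptake, storage and export genes compared here. A search of GENCODE v29 protein-coding transcripts (GRCh38) on the RNA's own strand looked for C, any 5 bases, CAGTG and any base, where the 5 bases before CAGTG pair with the 5 bases after the loop, G-T pairs allowed. It matched 4 of the 10 members, and the capitals mark the CAGTGN loop:
FTH1 5′ UTR, chr11:61967573-61967602 (minus strand): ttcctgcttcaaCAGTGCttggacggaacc
FTL 5′ UTR, chr19:48965335-48965364 (plus strand): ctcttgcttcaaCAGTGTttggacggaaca
SLC40A1 5′ UTR, chr2:189580660-189580689 (minus strand): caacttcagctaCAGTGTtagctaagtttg
TFRC 3′ UTR, chr3:196050978-196051007 (minus strand): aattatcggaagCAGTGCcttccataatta
TFRC 3′ UTR, chr3:196050574-196050603 (minus strand): cattatcgggagCAGTGTcttccataatgt
TFRC 3′ UTR, chr3:196050509-196050538 (minus strand): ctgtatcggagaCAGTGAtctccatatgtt
TFRC 3′ UTR, chr3:196050462-196050491 (minus strand): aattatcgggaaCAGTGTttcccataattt
Of 19669 protein-coding genes, 36 (0.183%) held a match in a 5′ UTR and 132 (0.671%) in a 3′ UTR. The search demanded this loop and 5 unbroken pairs, so an element with another loop, a mismatch or a bulge there would be missed. A member without a match may therefore still hold an element, and a matched member may hold more than those shown. A match is a description of the letters. RNA levels do not show whether a protein is bound there, and a block of translation would not appear in them.

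HFE, an MHC class I-like protein that pairs with beta-2-microglobulin and is mutated in hereditary hemochromatosis, was close to absent from the controls and present after each knockdown. Its gene lies on chromosome 6, 26087281 to 26098343, plus strand, in GENCODE v29. In MOLM13 it had 2 and 1 counts in the controls and 24 and 25 after PSPC1 knockdown, which are 0.0913 and 0.0597 CPM against 1.58 and 1.47 CPM. In OCIAML5 it had 6 and 2 counts in the controls and 184 and 118 after PSPC1 knockdown (0.326 and 0.127 CPM against 7.69 and 6.56 CPM). After PU.1 knockdown there were 20 and 17 counts against 2 and 3 in the controls of that experiment (0.725 and 0.474 CPM against 0.0633 and 0.0795 CPM).

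All knockdown libraries of HFE thus lay above all control libraries, and the order of the knockdown groups, PSPC1 in OCIAML5, PSPC1 in MOLM13, PU.1 in OCIAML5, held with no overlap between them. PU.1 knockdown belongs to another experiment, scaled on its own. Its place in this order cannot be told apart from a difference between the experiments. From counts summed over the 2 libraries of a group, the ratio of knockdown to control was 19.6 (exact 95% interval 6.32 to 98.2) in MOLM13, 30.8 (15.4 to 72.0) for PSPC1 in OCIAML5 and 8.09 (3.17 to 26.4) for PU.1. These intervals cover counting error only, and the few control counts set their width. HFE was chosen for this rise, so neither the ratios nor the intervals are a test of it. The 3 control groups, at means of 0.0755, 0.226 and 0.0714 CPM, rest on 3, 8 and 5 counts.

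B2M, the partner that HFE needs to reach the surface, did not follow it in all 3 knockdowns. It rose from 488 and 481 CPM to 625 and 613 CPM in MOLM13 (log2 fold change 0.35 ± 0.040 SE, edgeR quasi-likelihood adjusted p = 2.5e-12) and from 616 and 682 CPM to 894 and 901 CPM with PSPC1 knockdown in OCIAML5 (0.47 ± 0.040, edgeR adjusted p = 1.2e-17). With PU.1 knockdown it fell, from 624 and 636 CPM to 490 and 485 CPM (-0.37 ± 0.037, edgeR adjusted p = 1.1e-14). Among 12 listed genes of MHC class I presentation, 8 rose and 1 fell in MOLM13, 5 rose and 2 fell with PSPC1 knockdown in OCIAML5, and 3 of 11 tested rose and 7 fell with PU.1 knockdown. Over all genes, 27.6% were called higher and 29.6% lower in MOLM13, 27.6% and 28.6% with PSPC1 knockdown in OCIAML5, and 29.5% and 30.9% with PU.1 knockdown.

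**Figure D1:**
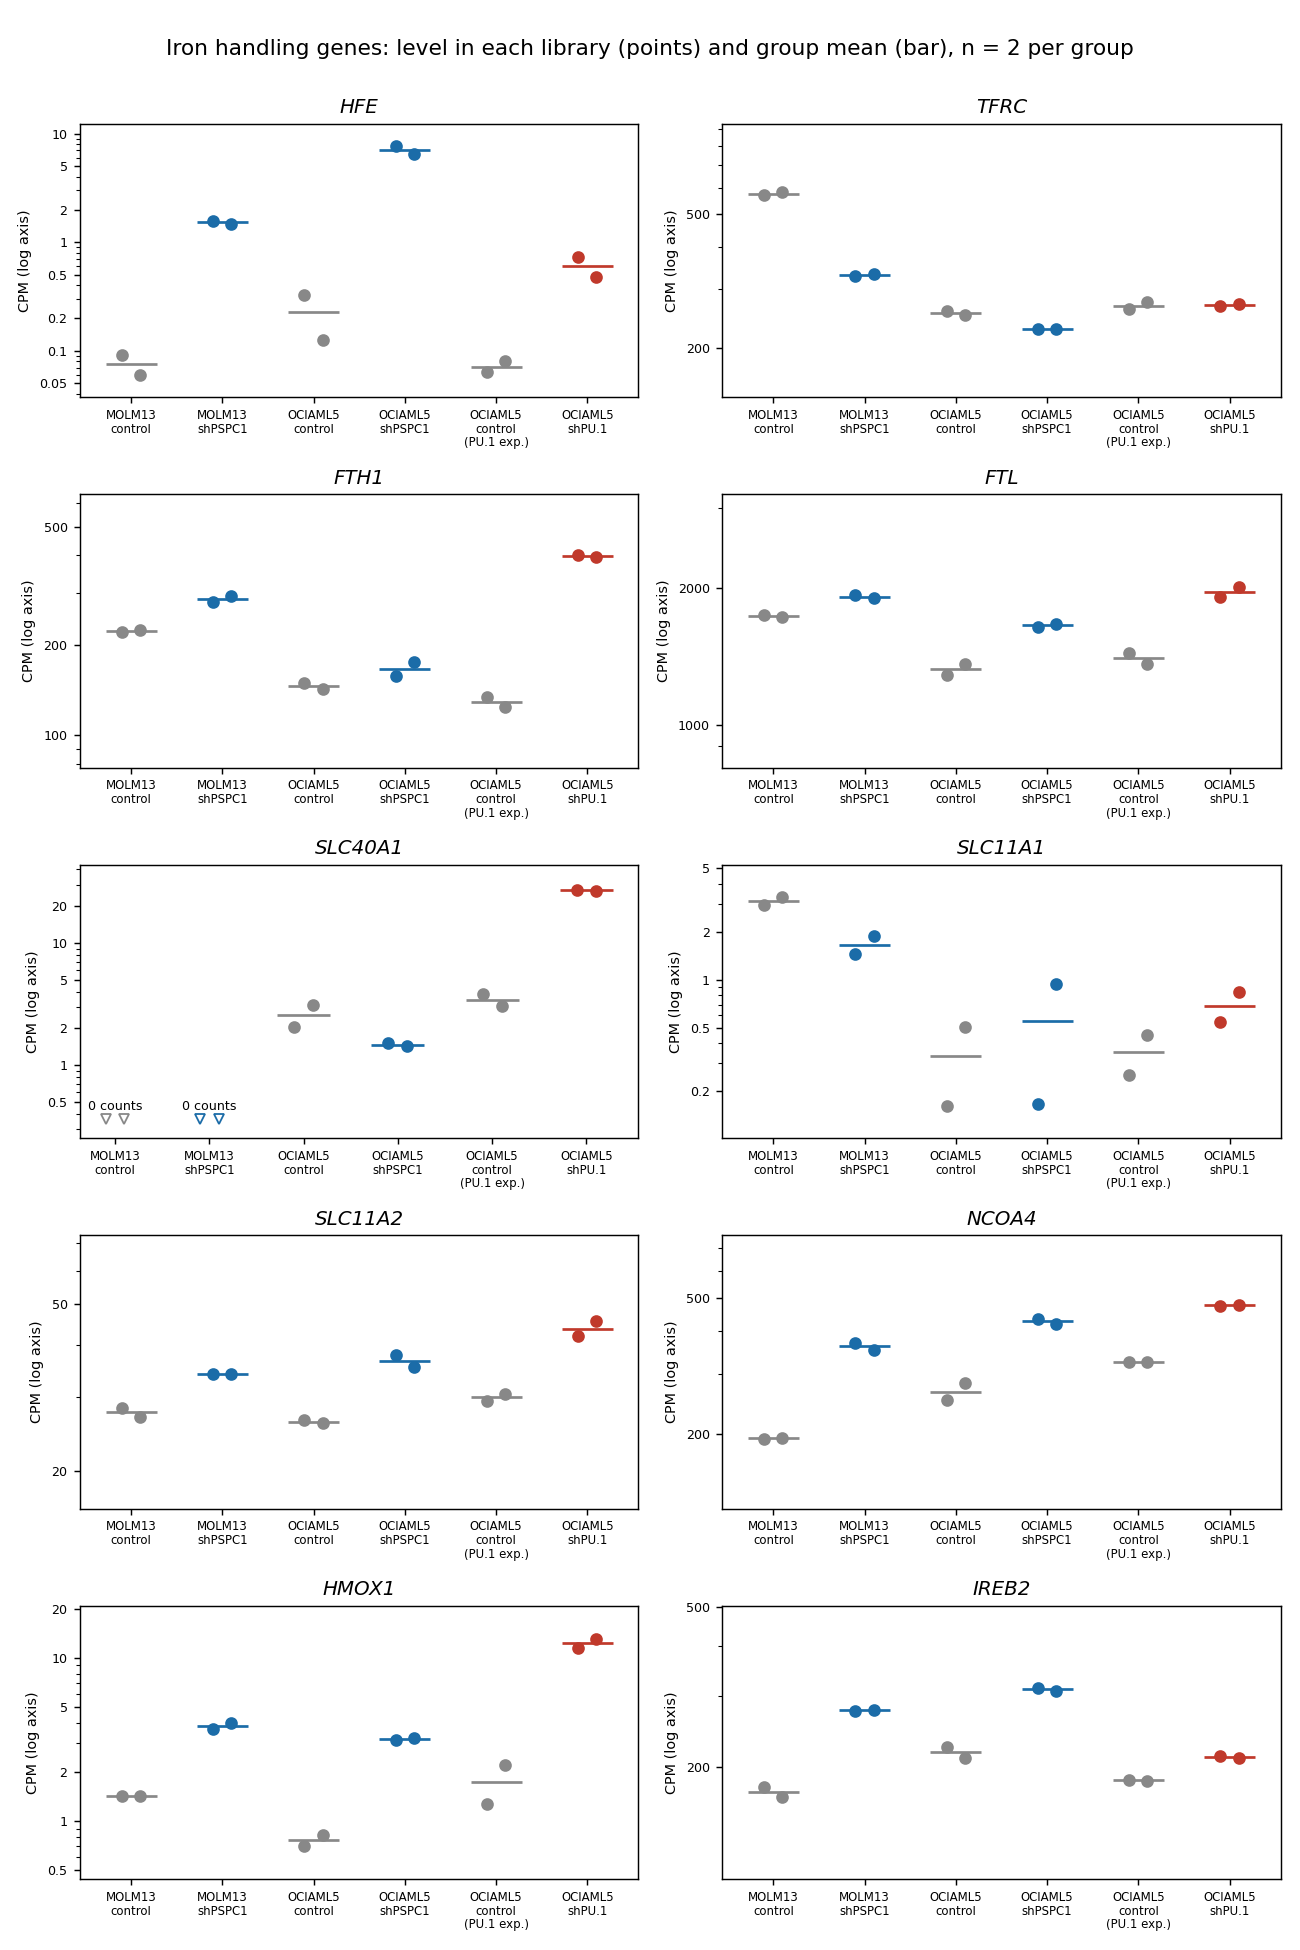
Level of each gene in CPM on a log axis, 1 panel per gene, for the 6 groups; points are libraries and bars are group means (n = 2), gray for controls, blue for PSPC1 knockdown and red for PU.1 knockdown. HFE stands above its controls in all 3 knockdowns, TFRC is lower after PSPC1 knockdown in MOLM13, and triangles mark libraries with 0 counts of SLC40A1.

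H1-2, H2BC4 and H2AC6, histone genes near HFE, rose with it in all 3 knockdowns. HFE sits inside the histone gene cluster of chromosome 6, and RefSeq (GRCh38.p14) places 6 other genes within 40 kb of it, of which 5 are in the count tables and 4 were tested: H1-2, H4C3, H2BC4 and H2AC6. H2AC6, a histone H2A gene, went from 14.1 and 12.1 CPM to 95.2 and 93.1 CPM in MOLM13 (log2 fold change 2.84 ± 0.090), from 4.13 and 5.25 to 104 and 98 CPM with PSPC1 knockdown in OCIAML5 (4.44 ± 0.11) and from 5.92 and 6.86 to 17.4 and 15.6 CPM with PU.1 knockdown (1.4 ± 0.13). Like HFE, it was highest after PSPC1 knockdown in OCIAML5 and lowest of the 3 knockdown groups after PU.1 knockdown, which belongs to the other experiment. The 2 PSPC1 knockdown groups were close, at 104 and 98 CPM in OCIAML5 and 95.2 and 93.1 CPM in MOLM13.

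H2BC4, a histone H2B gene, rose by 1.90 ± 0.25, 3.45 ± 0.24 and 0.82 ± 0.27 in log2 in the same order, and H1-2, a linker histone, by 1.47 ± 0.19, 1.90 ± 0.18 and 1.82 ± 0.12, with edgeR adjusted p of 0.0071 or less in each case. H4C3, a histone H4 gene, passed only with PSPC1 knockdown in OCIAML5 (0.109 and 0.126 CPM against 0.501 and 0.667 CPM, edgeR adjusted p = 0.016). Its log2 fold change was -0.62 ± 0.50 in MOLM13 and -0.42 ± 0.62 with PU.1 knockdown. Thus 3, 4 and 3 of the 4 neighbors rose and 0 fell, where 27.6%, 27.6% and 29.5% of all genes tested were called higher. H1-6, a testis histone, was at 0.611 CPM or below in all 12 libraries and was not tested.

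Replication histone messages mostly lack a poly(A) tail, and the libraries were made with an mRNA kit. In a list of 12 other RNAs of that kind, none of 3 tested passed in MOLM13, 2 of 3 rose with PSPC1 knockdown in OCIAML5 and 1 of 4 fell with PU.1 knockdown. Over all genes, 27.6% rose with PSPC1 knockdown in OCIAML5 and 30.9% fell with PU.1 knockdown. RN7SK, RN7SL2, RNU2-2P, RPPH1 and SCARNA2 of this list were at 0 CPM in every library, and RN7SL1 made up most of its summed level. So few genes near the floor do not show how such RNAs were captured. The part of poly(A) capture in the histone values was not tested. An antisense RNA, HFE-AS1, overlaps the start of HFE and is not listed in the tables under that symbol, and without a stated strand setting the reads of both cannot be told apart.

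**Figure D2:**
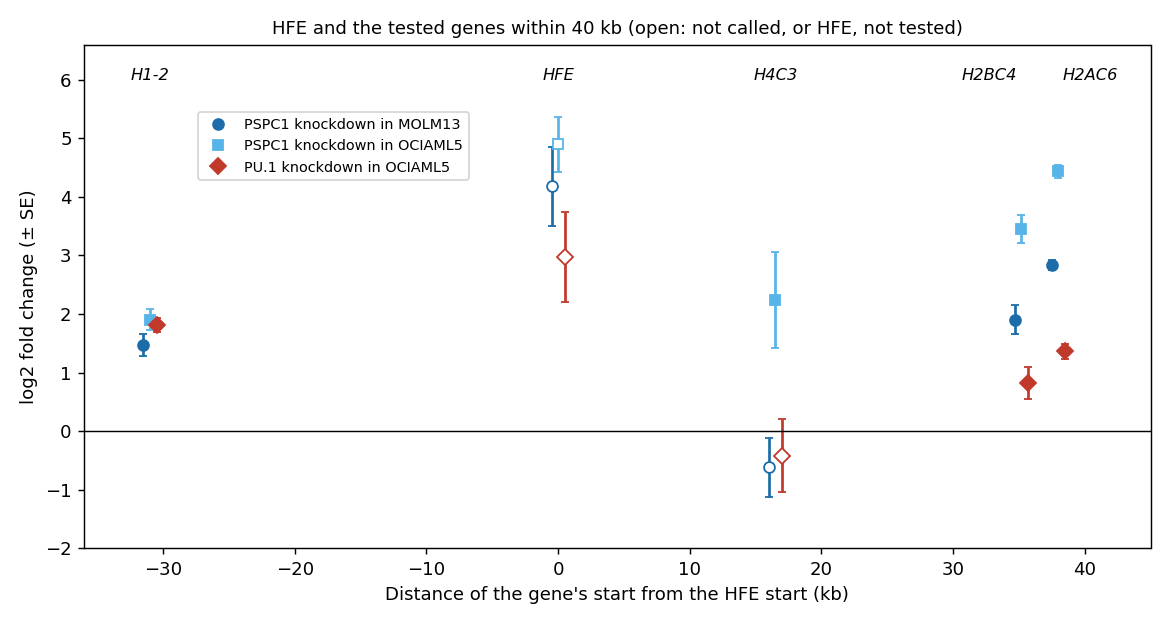
Log2 fold change (± SE) of HFE and of the 4 tested genes within 40 kb, by distance of each gene's start from the HFE start in kb; H2BC4 and H2AC6 start 0.2 kb apart and are drawn side by side. H1-2, H2BC4 and H2AC6 lie above 0 in all 3 knockdowns, H4C3 in 1; filled symbols passed an adjusted p of 0.05, and HFE is open because it was not tested.

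Over the 12 libraries the genes whose log2 CPM followed HFE most closely, by Pearson correlation among 17649 genes, were RBM39 (0.991), AFF4 (0.989), BRAF (0.988), AC060780.1 (0.986) and AC022432.1 (0.982). RBM39, a splicing factor, went from 314 and 311 to 383 and 381 CPM in MOLM13, from 334 and 338 to 455 and 441 CPM with PSPC1 knockdown in OCIAML5, and from 330 and 327 to 379 and 365 CPM with PU.1 knockdown. AFF4, a subunit of the super elongation complex, went from 81.5 and 73.3 to 142 and 145 CPM, from 98.9 and 88.7 to 230 and 236 CPM, and from 85.3 and 91.0 to 141 and 129 CPM. AC022432.1 was below 1 CPM in every library, so its place in this order rests on a few counts. The nearest of the other iron handling genes was IREB2 (0.947, in 56th place), followed by NCOA4 (0.688) and SLC11A2 (0.627), and TFRC had -0.434. These correlations describe 12 libraries that share 3 knockdown contrasts.

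TFRC, the transferrin receptor, fell in MOLM13 and moved little in OCIAML5. In MOLM13 it read 570 and 582 CPM without and 327 and 332 CPM with PSPC1 knockdown (log2 fold change -0.81 ± 0.041 SE, edgeR quasi-likelihood adjusted p = 3.5e-30). OCIAML5 controls had 258 and 250 CPM, and both libraries with PSPC1 knockdown had 228 CPM (-0.16, edgeR adjusted p = 0.00083). With library size alone as the scale this second fall was -0.076 with an adjusted p of 0.11, so its call rests on the scaling.

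With PU.1 knockdown, TFRC stood at 267 and 269 CPM against 260 and 273 CPM in the controls, with overlapping groups and a log2 fold change of 0.01 (edgeR adjusted p = 0.87; ratio of summed counts 1.00, counting interval 0.984 to 1.03). Library size alone turned this into 0.16 with an adjusted p of 0.00038. The difference between the lines in the response to PSPC1 knockdown was itself 0.65 in log2 (edgeR adjusted p = 1.1e-15).

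Both ferritin chains rose in all 3 knockdowns, the heavy chain most after PU.1 knockdown. FTH1, whose protein oxidizes iron for storage, read 222 and 226 CPM in control MOLM13 and 280 and 293 CPM after PSPC1 knockdown (log2 fold change 0.36 ± 0.047, edgeR adjusted p = 3.2e-10). In OCIAML5 the PSPC1 controls had 149 and 143 CPM and the knockdown libraries 158 and 176 CPM (0.19, edgeR adjusted p = 0.00055), a call that was lost without knockdown replicate 2 (0.11, adjusted p = 0.13). With PU.1 knockdown the level went from 134 and 125 CPM to 401 and 396 CPM (1.62, edgeR adjusted p = 1.4e-50). FTH1 therefore rose about 3.08-fold after PU.1 knockdown by summed counts and 1.28-fold and 1.13-fold after PSPC1 knockdown in MOLM13 and OCIAML5.

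FTL, the light chain that favors mineral formation, went from 1748 and 1730 CPM to 1929 and 1901 CPM in MOLM13 (log2 fold change 0.14, edgeR adjusted p = 0.00085). It went from 1290 and 1365 to 1644 and 1669 CPM with PSPC1 knockdown in OCIAML5 (0.32) and from 1437 and 1364 to 1912 and 2007 CPM with PU.1 knockdown (0.48). Knockdown and control libraries of both chains did not overlap in any of the 3 comparisons.

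The balance of the chains moved toward FTH1 in MOLM13 and with PU.1 knockdown, and with PSPC1 knockdown in OCIAML5 the groups overlapped. Dividing the FTL CPM by the FTH1 CPM within a library gave 7.86 and 7.66 in the MOLM13 controls and 6.89 and 6.48 after PSPC1 knockdown. In OCIAML5 the ratios were 8.64 and 9.55 in the PSPC1 controls and 10.38 and 9.49 after knockdown, and these overlapped. After PU.1 knockdown they were 4.77 and 5.07 against 10.69 and 10.96 in the controls. The ratio thus dropped by more than the spread of the libraries with PU.1 knockdown and, by less, in MOLM13.

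Ferritin genes have many processed copies in the genome that can share reads with them. The 24 listed copies of FTH1 held counts equal to at most 1.53% of those of FTH1 in any library, and the 16 of FTL at most 0.147%. FTH1 (chromosome 11, 61959718 to 61967660, minus strand) overlaps BEST1 on the other strand, which had 12 to 146 counts against 2262 or more of FTH1.

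SLC40A1, ferroportin, the exporter of iron from cells, was expressed in OCIAML5 and had 0 counts in all 4 MOLM13 libraries, which allows up to 0.0776 CPM in the controls and 0.0931 CPM after knockdown by a floor of 3 counts over the group. OCIAML5 had 2.07 and 3.10 CPM in the PSPC1 controls against 1.5 and 1.45 CPM after PSPC1 knockdown (log2 fold change -0.80, edgeR adjusted p = 0.18), so the fall did not pass the test. With PU.1 knockdown it went from 3.80 and 3.05 CPM to 27.2 and 26.8 CPM, from 120 and 115 counts to 749 and 962 (2.99, edgeR adjusted p = 1.3e-36). The effects of PU.1 and PSPC1 knockdown on SLC40A1 in OCIAML5 differed by 3.79 in log2 (edgeR adjusted p = 4.9e-15).

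Macrophages are a main site of ferroportin, and most monocyte and macrophage genes tested went the other way with PU.1 knockdown. Of 8 tested, 7 fell and 1 rose, where 30.9% of all genes were called lower and 29.5% higher. The summed level of the 12 listed genes was 501 and 510 CPM in controls against 36.9 and 38.1 CPM with knockdown. CSF1R went from 170 and 164 CPM to 2.9 and 3.54 CPM, MPEG1 from 238 and 249 to 2.07 and 1.98 CPM, and LYZ from 68.1 and 70.5 to 18.1 and 20.5 CPM. CD86, of the same list, rose from 0.095 and 0.053 CPM to 3.08 and 4.32 CPM. CD14, CD163 and CD68 were at 0.181 CPM or below in all 4 libraries. The part of this in the SLC40A1 value was not tested. In bulk libraries, more cells with a transcript and more of it per cell cannot be told apart.

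HMOX1, heme oxygenase, which breaks down heme and frees its iron, was low in the controls and rose in all 3 knockdowns. Control MOLM13 libraries had 1.42 and 1.43 CPM against 3.69 and 3.99 CPM after PSPC1 knockdown (log2 fold change 1.43). In OCIAML5 the levels were 0.707 and 0.822 CPM against 3.13 and 3.22 CPM after PSPC1 knockdown (2.05), and 1.27 and 2.20 CPM against 11.5 and 13 CPM after PU.1 knockdown (2.80). The libraries of each pair of groups did not overlap, and the edgeR adjusted p was 0.0089 or less for every setting tried in all 3 knockdowns. HMOX1 is a target of the stress factor NRF2. Of 12 listed NRF2 targets, 4 rose and 5 fell in MOLM13, 5 rose and 3 fell with PSPC1 knockdown in OCIAML5, and 4 rose and 5 fell with PU.1 knockdown. Over all genes tested, 27.6% were called higher and 29.6% lower in MOLM13, and 27.6% and 28.6% with PSPC1 knockdown in OCIAML5. With PU.1 knockdown the shares were 29.5% and 30.9%, so the NRF2 target counts were not far from those of all genes. The part of NRF2 in the HMOX1 values was not tested.

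NCOA4, the receptor that delivers ferritin to the lysosome, rose in MOLM13 (193 and 195 CPM against 370 and 352 CPM), from 251 and 281 CPM to 435 and 419 CPM with PSPC1 knockdown in OCIAML5, and from 325 and 324 CPM to 474 and 477 CPM with PU.1 knockdown. The log2 fold changes were 0.90, 0.69 and 0.55. Every knockdown library lay above every control of its experiment. NCOA4 and the ferritin chains, which it carries, were therefore all higher in each knockdown at the RNA level.

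IREB2, iron regulatory protein 2, rose with it: 178 and 168 CPM against 276 and 277 CPM in MOLM13, 224 and 210 against 314 and 309 CPM with PSPC1 knockdown in OCIAML5, and 186 and 184 against 213 and 211 CPM with PU.1 knockdown. The log2 fold changes were 0.67, 0.52 and 0.20. ACO1, its relative, went the other way and fell in all 3, from 28.9 and 30.3 CPM to 16.8 and 14.5 CPM (-0.92 ± 0.11), from 39.1 and 40 to 19.5 and 20.6 CPM (-0.98 ± 0.11), and from 39.4 and 41.4 to 28.6 and 29 CPM (-0.49 ± 0.073). FBXL5, which marks IREB2 protein for degradation when iron is plentiful, rose by 0.26 ± 0.087 with PSPC1 knockdown in OCIAML5 (edgeR adjusted p = 0.0096). Its values of 0.14 ± 0.090 in MOLM13 and 0.03 ± 0.072 with PU.1 knockdown did not pass.

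The 2 divalent metal transporters differed. SLC11A2, also called DMT1, rose from 28.3 and 26.9 CPM to 34.0 and 34.1 CPM in MOLM13 (log2 fold change 0.30), from 26.4 and 26.1 to 37.8 and 35.3 CPM with PSPC1 knockdown in OCIAML5 (0.48) and from 29.4 and 30.6 to 41.9 and 45.5 CPM with PU.1 knockdown (0.54). The MOLM13 call was lost without control replicate 2 (0.25, edgeR adjusted p = 0.081). SLC11A1, also called NRAMP1, a phagosome transporter of macrophages and neutrophils, had 65 and 55 counts in the MOLM13 controls and 22 and 32 after PSPC1 knockdown (2.97 and 3.29 CPM against 1.45 and 1.88 CPM). Its log2 fold change of -0.90 did not pass over all 8 libraries (edgeR adjusted p = 0.087) and passed when MOLM13 was fitted alone (-0.89, adjusted p = 0.028). Of 8 monocyte and macrophage genes tested in MOLM13, 3 rose and 1 fell (median log2 fold change 0.08). Over all genes tested there, 27.6% were called higher and 29.6% lower. Their summed level went from 299 and 287 CPM to 450 and 438 CPM, of which LYZ made up 198 and 192 CPM and then 349 and 333 CPM. In OCIAML5 SLC11A1 had 3 to 30 counts per library, and neither knockdown passed. With PU.1 knockdown its libraries did not overlap, at 0.544 and 0.837 CPM against 0.253 and 0.451 CPM (edgeR adjusted p = 0.12).

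Of the 9 genes besides HFE, 6 rose and 1 fell in MOLM13 (SLC40A1 had no counts), 6 rose and 1 fell with PSPC1 knockdown in OCIAML5, and 7 rose and 0 fell with PU.1 knockdown. Over all genes tested, 27.6% were called higher and 29.6% lower in MOLM13, 27.6% and 28.6% with PSPC1 knockdown in OCIAML5, and 29.5% and 30.9% with PU.1 knockdown. The last split, 4981 genes higher and 5216 lower, became 6583 and 3995 with library size alone as the scale, which moved the median of all genes by 0.151 in log2. FTH1, FTL, SLC11A2, NCOA4, HMOX1 and IREB2 rose in all 3, that is 6 of the 8 that could be tested in each, SLC40A1 being left out. Of the 15396 genes tested in all 3, 9.66% rose in each. Of the 8, 0 fell in all 3, against 14.4%. The genes were picked with results of these data known, so the counts describe the set.

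**Figure D3:**
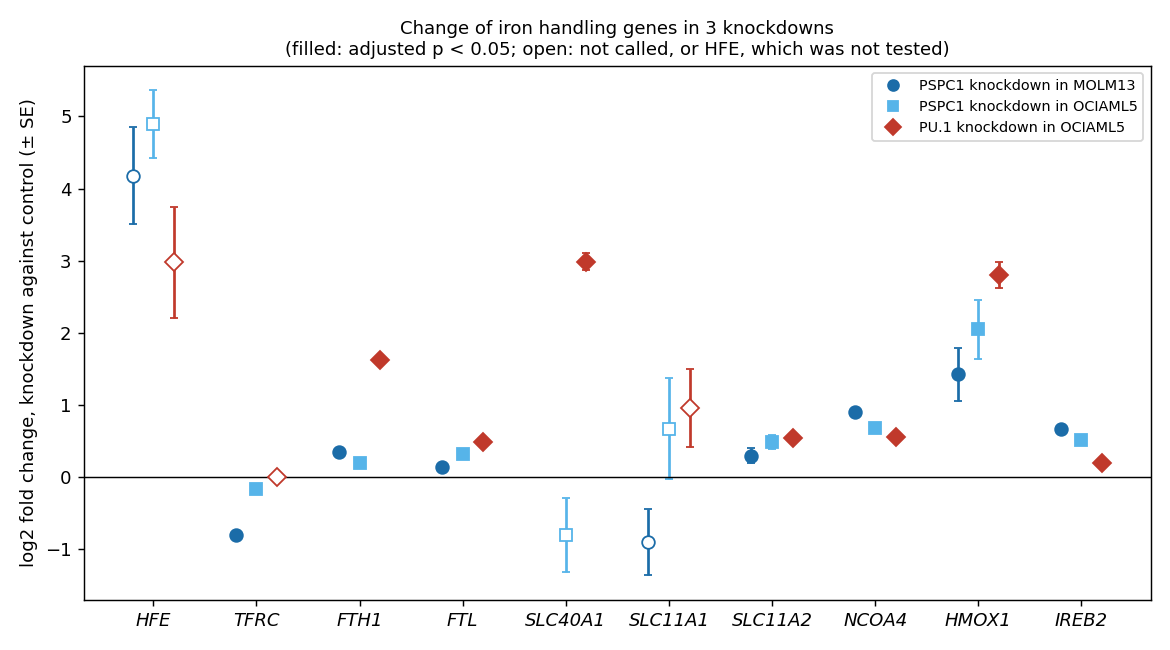
Log2 fold change (± SE) of each gene in the 3 knockdowns; filled symbols passed an adjusted p of 0.05, and HFE is open because it was not tested. FTH1, FTL, SLC11A2, NCOA4, HMOX1 and IREB2 lie above 0 in all 3, TFRC in MOLM13 (-0.81) lies furthest below 0 of the filled points, and the PU.1 points of SLC40A1 (2.99) and FTH1 (1.62) stand well above their PSPC1 points.

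The response to PSPC1 knockdown differed between the lines for 3 of the 8 genes that could be tested. In log2, OCIAML5 minus MOLM13, the difference was 0.65 for TFRC, 0.18 for FTL and -0.21 for NCOA4 (edgeR adjusted p = 0.0056). Thus 2 of 8 were higher and 1 lower, where 18.2% of all genes were higher and 12.5% lower, a share not far from theirs. The NCOA4 difference was lost without MOLM13 knockdown replicate 1 (-0.18, adjusted p = 0.057) and without OCIAML5 control replicate 2 (-0.13, adjusted p = 0.075). FTH1 and IREB2 did not pass, but each passed in 5 of the alternative settings, at -0.238 to -0.159 in log2, so their calls rest on the setting. SLC11A1 did not pass either (1.57, edgeR adjusted p = 0.16) and passed without OCIAML5 control replicate 2 (2.532, adjusted p = 0.049) or knockdown replicate 1 (2.428, adjusted p = 0.02).

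PU.1 and PSPC1 knockdown in OCIAML5 differed for 5 of 9 genes, each effect taken against its own controls. SLC40A1, FTH1, FTL and TFRC had the more positive change with PU.1 knockdown and IREB2 with PSPC1 knockdown, where 22.7% of all genes were higher and 22.9% lower. The differences for TFRC and FTL were small, and each was lost in 2 alternative settings, at 0.154 to 0.157 and 0.15 to 0.155 in log2. HMOX1, NCOA4, SLC11A2 and SLC11A1 did not pass. HMOX1 passed without control replicate 2 of the PU.1 experiment (1.239, edgeR adjusted p = 0.032), and NCOA4 without OCIAML5 control replicate 2 of the PSPC1 experiment (-0.197, adjusted p = 0.004).

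Between the control groups of the lines, TFRC, FTH1, FTL and SLC11A1 were higher in the MOLM13 controls than in the OCIAML5 controls of the same experiment, and SLC40A1, NCOA4 and IREB2 were lower, so 4 and 3 of 9 genes were called where 30% and 30.7% of all genes were, a share not far from theirs. By summed counts TFRC was 2.26-fold (counting interval 2.20 to 2.32), FTH1 1.53-fold, FTL 1.31-fold and SLC11A1 9.66-fold (5.21 to 19.9) the OCIAML5 level. SLC40A1 was at least 32.7-fold lower in MOLM13, with a floor of 3 counts over that group and the 87 OCIAML5 counts taken as exact. With counting error in both groups, 0 against 87 counts gave an upper limit of 0.0384 for the ratio, which allows a smaller difference. HFE was at 0.332 times the OCIAML5 level, with an interval of 0.0567 to 1.38 that includes equality.

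Per kilobase of exon sequence, FTL had the highest level of the 10 genes in all 6 groups, from 1510 to 2230 CPM per kb. FTH1, NCOA4 and TFRC came next, at 28.9 to 196 CPM per kb, then IREB2 at 16 to 28.8 CPM per kb (next to TFRC at 28.9 after PSPC1 knockdown in OCIAML5, not apart beyond the spread) and, in 5 of 6 groups, SLC11A2 at 2.59 to 3.61 CPM per kb. In the PU.1-knockdown libraries SLC40A1 (6.24 ± 0.053 CPM per kb, SD, n = 2) and HMOX1 (5.10 ± 0.43) stood above SLC11A2 (4.31 ± 0.25), an order that turned when the longest transcript set the length. HFE reached 1.25 ± 0.14 CPM per kb after PSPC1 knockdown in OCIAML5, next to HMOX1 at 1.32 ± 0.027, and the 2 did not differ beyond their spread. In the OCIAML5 controls of that experiment HFE (0.0399 ± 0.025) and SLC11A1 (0.0385 ± 0.028) did not differ beyond their spread either.

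The rest of the iron pathway was followed with 91 further genes in 7 lists. Of 72 tested in MOLM13, 16 rose and 34 fell (median log2 fold change -0.26, against 0.006 over all genes). With PSPC1 knockdown in OCIAML5, 22 of 72 rose and 29 fell (median -0.07, against 0.017), and with PU.1 knockdown 23 of 73 rose and 31 fell (median -0.08, against 0.020). Of 71 tested in all 3, 10 rose in each, among them CYBRD1, ACVR1, MARCHF8, TAX1BP1, BACH1, NFE2L2, EPAS1, TMEM14C and FDXR. Another 16 fell in each, among them STEAP3, SLC39A14, ERFE, ACO1, PCBP1, FECH, HMOX2, LYRM4, HSPA9, GLRX5, BOLA3, CIAO1, NDOR1 and GLRX3. Over all genes, 9.66% rose and 14.4% fell in all 3. With library size alone as the scale, 12 further iron genes rose and 13 fell in all 3, and STEAP3, LYRM4 and GLRX3 were lost. On that scale 2067 of all 15396 genes rose in all 3 and 1709 fell. The counts per list below stand beside 27.6% of all genes called higher and 29.6% lower in MOLM13, 27.6% and 28.6% with PSPC1 knockdown in OCIAML5, and 29.5% and 30.9% with PU.1 knockdown.

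Among genes of uptake and reduction, the importers SLC39A14 and SLC39A8 fell with PSPC1 knockdown in both lines and the reductase CYBRD1 rose. SLC39A14, also called ZIP14, an importer of iron not bound to transferrin, fell from 199 CPM in both MOLM13 controls to 36.2 and 34.7 CPM (log2 fold change -2.49 ± 0.059), from 270 and 282 to 69.6 and 74.1 CPM with PSPC1 knockdown in OCIAML5 (-1.94 ± 0.052), and from 245 and 244 to 177 and 180 CPM with PU.1 knockdown (-0.46 ± 0.042). SLC39A8, the related importer ZIP8, fell from 70.5 and 69.9 to 27.3 and 25.9 CPM and from 71.9 and 80.2 to 42.6 and 44.8 CPM with PSPC1 knockdown, but rose from 96.4 and 101 to 134 and 131 CPM with PU.1 knockdown (0.42 ± 0.049). CYBRD1, a ferric reductase, rose by 1.28 ± 0.091, 0.82 ± 0.073 and 0.27 ± 0.055. STEAP3, the reductase of the transferrin endosome, fell from 45.3 and 48.6 to 32.6 and 29.7 CPM and from 45.2 and 44.2 to 31.4 and 32.2 CPM with PSPC1 knockdown, and by 0.15 ± 0.058 in log2 with PU.1 knockdown, a call lost with library size alone. In this list 2 of 9 rose and 5 fell in MOLM13, 3 rose and 4 fell with PSPC1 knockdown in OCIAML5, and 4 rose and 3 fell with PU.1 knockdown.

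Among genes of export and the hepcidin axis, 5 of 12 were high enough to be tested. ERFE, the erythroferrone hormone that represses hepcidin, fell from 7.99 and 7.46 to 1.25 and 0.834 CPM with PSPC1 knockdown in OCIAML5 (-2.86 ± 0.33) and from 10.4 and 9.89 to 5.77 and 4.38 CPM with PU.1 knockdown (-1.01 ± 0.15), and from 3.47 and 2.57 to 0.264 and 0.234 CPM in MOLM13. MARCHF8, a ubiquitin ligase that can remove the transferrin receptor from the surface, rose by 0.89 ± 0.12, 0.83 ± 0.11 and 1.19 ± 0.069. ACVR1, a BMP receptor, rose from 2.92 and 3.70 to 7.84 and 5.10 CPM in MOLM13 and from 3.97 and 3.98 to 17.1 and 12.8 CPM with PSPC1 knockdown in OCIAML5. NEO1, neogenin, rose from 8.48 and 7.33 to 14.7 and 17.3 CPM and from 8.77 and 9.25 to 25.1 and 21.3 CPM in the 2 OCIAML5 knockdowns, and in MOLM13 it was at 0.352 CPM or below.

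Iron sensing and chaperone genes, 10 tested, rose in 5 and fell in 2 cases in MOLM13, 7 and 2 with PSPC1 knockdown in OCIAML5, and 4 and 3 with PU.1 knockdown. TAX1BP1, an adaptor for the delivery of ferritin with NCOA4 to the lysosome, rose from 97.3 and 91.7 to 176 CPM in both libraries with PSPC1 knockdown in OCIAML5 (0.90 ± 0.051), by 0.30 ± 0.050 in MOLM13 and by 0.35 ± 0.051 with PU.1 knockdown. HERC2, the ligase that marks NCOA4 for degradation, rose with PSPC1 knockdown (0.62 ± 0.043 in MOLM13 and 0.75 ± 0.045 in OCIAML5) and fell with PU.1 knockdown (-0.20 ± 0.045). PCBP1, a chaperone that delivers iron to ferritin, fell by 0.44 ± 0.10, 0.33 ± 0.098 and 0.45 ± 0.063, though with PSPC1 knockdown in OCIAML5 the libraries overlapped (37.6 and 47.3 against 30.1 and 37.7 CPM). NFE2L2, the gene of NRF2, rose by 0.39 ± 0.055, 0.51 ± 0.054 and 0.44 ± 0.048, and BACH1, which represses HMOX1, rose by 0.37 ± 0.068, 0.37 ± 0.065 and 0.15 ± 0.056.

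**Figure D4:**
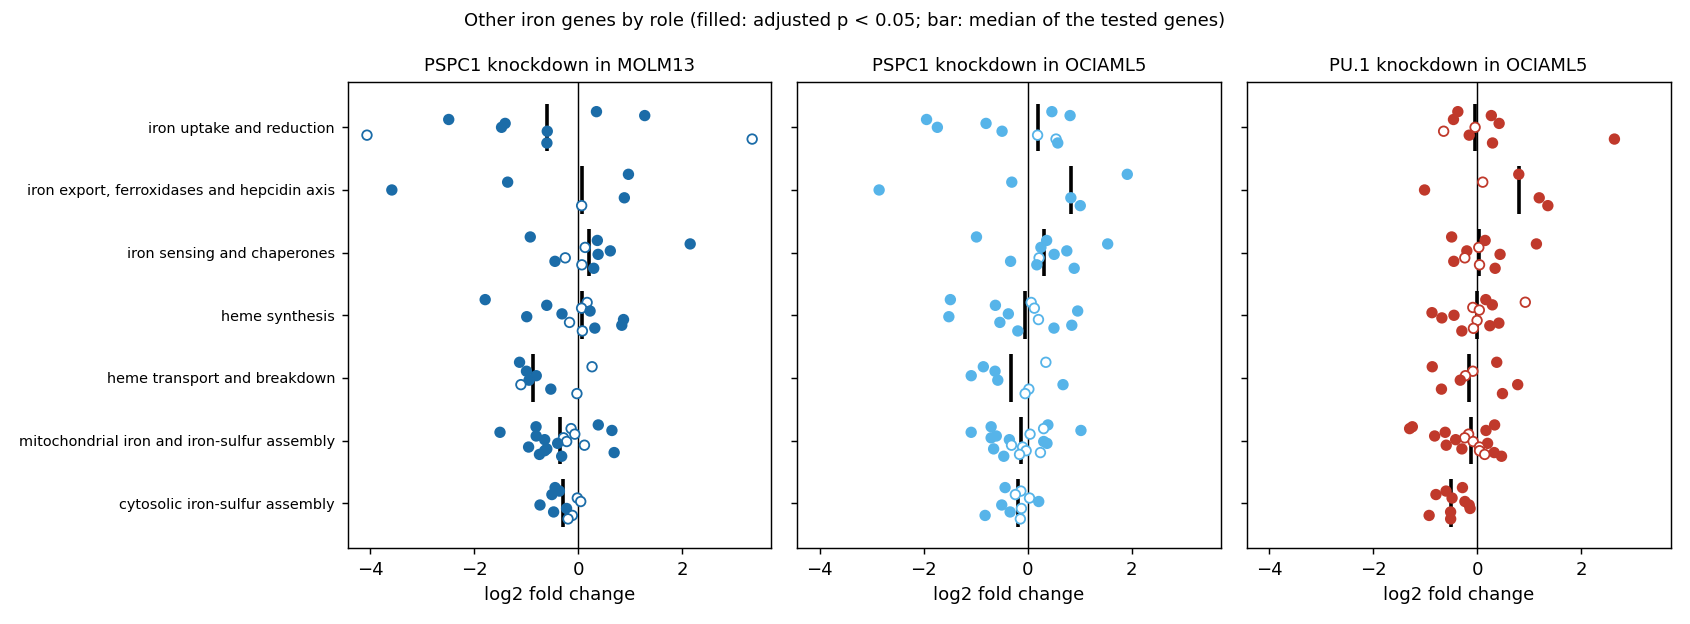
Log2 fold change of each tested gene of the 7 further iron lists, 1 panel per knockdown; filled points passed an adjusted p of 0.05 and the black bar is the median of a list. Under TMM scaling all 10 cytosolic iron-sulfur assembly genes lie below 0 and are filled with PU.1 knockdown (7 of 10 with library size alone), and the median of the heme transport and breakdown list is lowest in MOLM13 (-0.87).

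Heme synthesis moved both ways, with 4 of 12 genes higher and 4 lower in MOLM13, 3 and 6 with PSPC1 knockdown in OCIAML5, and 4 and 4 of 13 with PU.1 knockdown. ABCB10, a mitochondrial transporter needed for heme synthesis, fell from 102 and 106 to 31.0 and 29.4 CPM and from 164 and 160 to 59.9 and 55.5 CPM with PSPC1 knockdown and rose by 0.17 ± 0.042 with PU.1 knockdown. CPOX, an enzyme of the pathway, rose from 49.3 and 55.3 to 108 and 95.5 CPM with PSPC1 knockdown in OCIAML5 and fell from 63.2 CPM in both controls to 36.6 and 32.8 CPM with PU.1 knockdown. PPOX, the next enzyme, rose from 6.90 and 6.33 to 11.3 and 13 CPM in MOLM13. FECH, which inserts iron into heme, fell by 0.31 ± 0.11, 0.37 ± 0.096 and 0.45 ± 0.070.

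Heme transport and breakdown genes were lower in 5 of 8 cases and higher in 0 in MOLM13, lower in 4 and higher in 1 with PSPC1 knockdown in OCIAML5, and 3 each way with PU.1 knockdown. While HMOX1 rose, HMOX2, the constitutive heme oxygenase, fell from 51.5 and 52.9 to 25.3 and 28.8 CPM in MOLM13 (-0.94 ± 0.094), from 39.1 and 45 to 26.9 and 29.6 CPM with PSPC1 knockdown in OCIAML5 (-0.57 ± 0.094) and from 52.5 and 46.9 to 39.6 and 39.7 CPM with PU.1 knockdown (-0.32 ± 0.068). FLVCR1, the heme exporter, fell from 24.6 and 25 to 10.3 and 14.5 CPM in MOLM13 and from 29 and 23.9 to 15.9 and 18.6 CPM with PSPC1 knockdown in OCIAML5. FLVCR2 fell from 17.4 and 16.1 to 8.50 and 10.6 CPM in MOLM13. BLVRB, a biliverdin reductase, fell by 0.85 ± 0.18 and 0.86 ± 0.13 in the 2 OCIAML5 knockdowns, LRP1, the receptor of hemopexin, rose by 0.68 ± 0.14 and 0.78 ± 0.076, and PGRMC1, a heme-binding protein, fell from 67.2 and 72.8 to 44.4 and 42.8 CPM with PU.1 knockdown.

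Of 18 genes of mitochondrial iron and iron-sulfur assembly, 3 rose and 10 fell in MOLM13, 4 rose and 7 fell with PSPC1 knockdown in OCIAML5, and 5 rose and 7 fell with PU.1 knockdown. BOLA3 fell by 0.81 ± 0.18, 0.70 ± 0.17 and 1.25 ± 0.10. ISCU, the scaffold, fell from 78.6 and 82.9 to 42.7 and 40.8 CPM in MOLM13, and FDX1 and GLRX5 fell by 1.3 ± 0.14 and 0.82 ± 0.057 with PU.1 knockdown. FDXR, ferredoxin reductase, rose from 34.3 and 31.8 to 50.7 and 53.1 CPM, from 39.6 and 39.2 to 82.3 and 78.1 CPM and by 0.17 ± 0.057.

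In the cytosolic pathway 10 of 10 tested genes fell with PU.1 knockdown (median -0.50), where 30.9% of all genes did. With library size alone as the scale 7 of 10 fell (median -0.34), where 3995 of all 16861 genes tested fell and 6583 rose. CIAPIN1, GLRX3 and MMS19 did not pass on that scale, at -0.083, -0.001 and 0.016. With PSPC1 knockdown 6 of 10 fell and 0 rose in MOLM13, and 4 fell and 1 rose in OCIAML5. NUBP1, a scaffold of that pathway, fell from 14.5 and 12.9 to 7.65 and 6.86 CPM with PU.1 knockdown (-0.92 ± 0.13) and from 11.6 and 12.3 to 6.77 and 6.78 CPM with PSPC1 knockdown in OCIAML5 (-0.82 ± 0.18), and it did not pass in MOLM13 (-0.11 ± 0.18, edgeR adjusted p = 0.63). CIAO1, NDOR1 and, under TMM scaling, GLRX3 fell in all 3 knockdowns, CIAO1 by 0.44 ± 0.059, 0.43 ± 0.059 and 0.28 ± 0.049. CIAO2B fell from 37.8 and 34.9 to 21.0 CPM in both libraries with PU.1 knockdown.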

How the data were processed

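Libraries made with a stranded mRNA kit, per the labels' protocols, were sequenced from 12 samples in 6 groups of 2. The authors deposited raw counts per gene, 60648 genes in a table of 8 libraries and one of 4. The submitters' processing notes list DESeq2 1.36.0, HTSeq 2.0.2, STAR 2.7.10a and Trim Galore 0.6.7, and the build GRCh38. The annotation release, the strand setting and the role of each tool were not given in the sources used here.

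Counts were tested with edgeR 4.0.16 in R 4.3.3 (filterByExpr, TMM, robust quasi-likelihood F test, Benjamini-Hochberg over all genes, threshold 0.05) in 6 comparisons. The 4 groups with PSPC1 hairpins or their controls shared a fit, the 2 groups of the PU.1 experiment another, and the OCIAML5 libraries were joined for the difference of both knockdowns. SE is the log2 fold change divided by the root of F. CPM was scaled within each table. Correlations used log2 CPM with a prior count of 2. The variance between libraries of a group was 2.61 to 4.96 times counting noise, so no pair was counted as 1.

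The members and gene lists were chosen with earlier results of these data known. Further iron genes were named where they passed, reached a mean of 5 CPM and had both knockdown libraries beyond both controls, at most 3 per list and knockdown. Some genes this rule names are not reported here. STEAP3, FBXL5, BACH1 and the remaining genes called in all 3 knockdowns fall outside that rule and were named after their values were seen. Alternatives were DESeq2 1.42.0, RLE factors, library size alone, no filter, 1 CPM in 2 libraries, a replicate block, MOLM13 or OCIAML5 alone, ferritin copies added, longest-transcript lengths and leaving out each library. Plots used Python 3.11.15 and matplotlib 3.10.9. Lengths and positions are from GENCODE v29.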

Additional observations from a re-analysis of the deposited data

Results flagged for a closer look

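The response to PSPC1 knockdown differed between the lines for 3 of the 8 iron handling genes tested, by the interaction test in edgeR, OCIAML5 minus MOLM13. Of the 8, 2 were higher and 1 lower, where 18.2% of all genes were higher and 12.5% lower, a share not far from theirs. TFRC differed by 0.647 in log2 (adjusted p = 1.1e-15), since it fell from 576 to 330 CPM in MOLM13 and from 254 to 228 CPM in OCIAML5. FTL differed by 0.18, with the larger rise in OCIAML5. NCOA4 differed by -0.212, with the larger rise in MOLM13, and this difference was lost when either of 2 libraries was left out. Proliferation genes also differed between the lines in the same direction as TFRC, 16 of 16 of them (median 0.95 in log2), and their part in the TFRC difference was not tested.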

How the results depend on the processing

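Of the member tests under the alternatives, 580 kept their direction and their side of the threshold, 16 passed newly, 9 no longer passed and 9 changed sign. The sign changes were in results that did not pass. TFRC with PU.1 knockdown was -0.008 with no low-count filter and between -0.049 and 0.03 without single libraries, against 0.008. SLC11A1 with PSPC1 knockdown in OCIAML5 ran from -0.936 to 1.623 without single libraries, its difference between the lines from -0.026 to 2.532, and its difference between PU.1 and PSPC1 knockdown from -0.685 to 1.927. For the difference between the lines, the further iron genes called lower numbered 6, against 3 with DESeq2 and 3 to 6 without single libraries. The HFE log2 fold change of 4.18 in MOLM13 was 4.51 without control replicate 1, and 4.90 for PSPC1 in OCIAML5 was 5.74 without control replicate 1, because control counts are few.

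Library size alone moved the median of all genes by 0.151 in log2 with PU.1 knockdown, and the split of genes higher and lower there was 6583 and 3995, against 4981 and 5216. Same-numbered libraries shared no detectable deviation (correlations of 0.008, 0.006 and 0.005 over genes). With 2 pairs per comparison, these values cannot show whether same-numbered libraries were prepared together. With a replicate block the counts of genes called were 9278, 9101, 9929, 4962, 7683 and 9863 in the 6 comparisons, against 9408, 9238, 10197, 5050, 7820 and 9990, and no member call changed. SLC11A1 in OCIAML5, at 3 to 30 counts per library, had log2 fold changes with an SE of 0.70 (PSPC1 knockdown) and 0.54 (PU.1 knockdown). Protein and iron levels were not analysed here.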
